A study of Mus musculus with 4 samples.

Results

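The C/EBP transcription factor family was followed here in pro-B cells sorted as B220+cKit+ from marrow of wild type C57BL/6 mice. The family was listed by the symbols of 7 genes, Cebpa, Cebpb, Cebpd, Cebpe, Cebpg, Cebpz and Ddit3, and the rule itself used no measured value. Of these 7 genes, 6 carried a probe set of their own, 1 each, among the 34760 probe sets of the table, and no probe set had Cebpz as its only symbol. RNA was hybridized to 4 arrays, 1 per replicate, with log2 intensity as the unit. The methods describe the pro-B gate as low B220 with c-Kit. From a flow cytometry recheck they state a high lower bound of purity for isolated subpopulations in general, without a value for each array. No age, sex or treatment is given, and arrays of transgenic or splenic cells were not analysed here.

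C/EBP proteins are basic leucine zipper factors that bind DNA as dimers with each other or with related factors. In marrow they are known for the myeloid programme: C/EBPα starts granulocyte and monocyte differentiation from progenitors and C/EBPε carries granulocytes through their late stages, while B-lineage commitment runs through Pax5 and Ebf1. Forced C/EBPα is known to turn B-lineage cells into macrophage-like cells. An array reads the RNA of a gene, so it does not separate the long and short protein forms that alternative start codons give for C/EBPα and C/EBPβ.

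A value was taken as above background where it passed, on every array, a line drawn from 1246 probe sets for odorant, pheromone and taste receptors, taken as silent in marrow, at their 95th percentile. The line lay between 6.53 and 6.62 on the 4 arrays, and 60.0% of all probe sets passed it. All 6 measured family genes passed on every array, so their count is read against that share. In a one-sided limma test against the line, with Benjamini-Hochberg adjustment over the whole table, 60.2% of all probe sets were called and again all 6 family genes, with adjusted p from 4.92e-08 for Cebpg to 0.000102 for Cebpd. Of the early B-cell genes that mark the labelled cell type, 12 of 12 with a probe set were above the line. Vpreb1 came nearest to it, 0.30 above on the array of replicate 4. Markers of further marrow cell types were above the line too. These were 12 of 12 late granule genes, 8 of 8 monocyte and macrophage markers and 7 of 7 erythroid markers. Of mast cell, basophil and eosinophil markers 6 of 8 passed, and of T and NK cell markers 6 of 7. At the 99th percentile of the same receptor probe sets, Cd3g, Cd4 and Cd8a passed on no array and Cd14 on 1. Klrb1c and Vpreb1 passed that stricter line on 2 arrays, and Alas2 and Il5ra on 3. All other markers above the line passed it on all 4. In bulk RNA, fewer cells of a type and less RNA per cell cannot be told apart, and neither can expression by the pro-B cells and RNA of other cells in the sort. Xist stood at 5.48 on the array of replicate 3 against 13.04 to 13.17 on the others, so that replicate was not from the same animal. Whether the others came from separate mice is not given, and their spread may be technical.

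**Figure D1:**
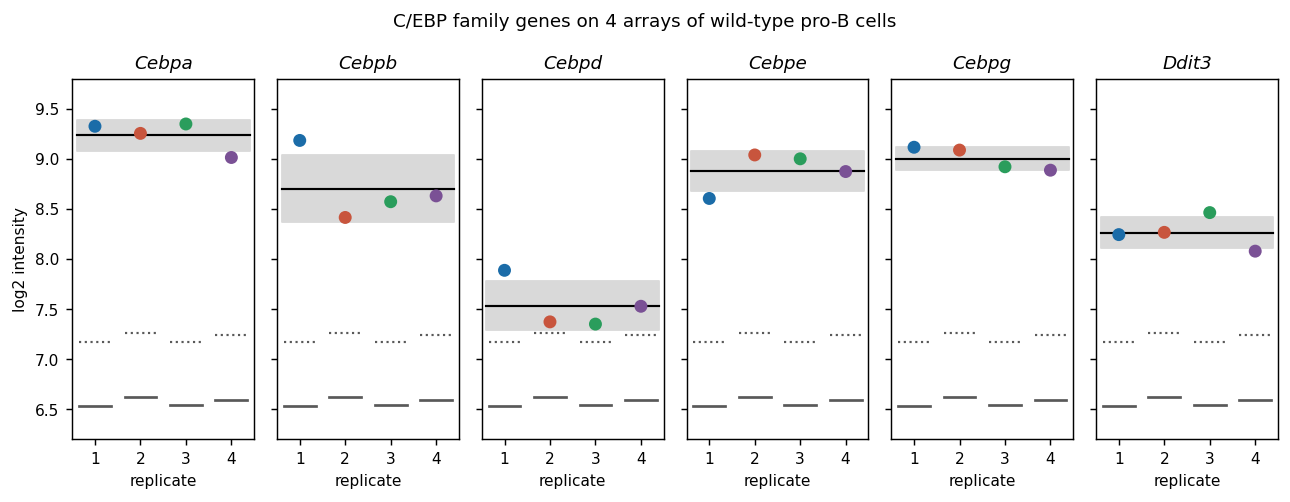
Log2 intensity (vertical axis) of the 6 measured C/EBP family genes on the arrays of replicates 1 to 4 (horizontal axis). Points are arrays, black lines the mean and grey bands 1 SD (n = 4), solid ticks the background line of each array and dotted ticks the stricter 99th percentile line; every point lies above both, Cebpd by as little as 0.11 over the dotted ticks, and heights are not compared between genes because each probe set has its own response.

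The core myeloid factors came first. Cebpa, the factor that starts granulocyte and monocyte differentiation, had log2 values of 9.33, 9.26, 9.35 and 9.01 on the arrays of replicates 1 to 4. Replicates 1 to 3 lay within 0.094 of each other and replicate 4 was below them. The mean was 9.24 ± 0.15 (SD, n = 4), which is 2.67 above the background line on average, and the range of 0.33 on the log2 scale corresponds to 1.26-fold between the highest and lowest array.

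Cebpe, the factor of late granulocyte maturation, had log2 values of 8.60, 9.04, 9.001 and 8.87. It was lowest on the array of replicate 1, with a shift of -0.37 from the mean of the others. Its mean was 8.88 ± 0.20 (SD, n = 4), 2.31 above the line, and the range was 0.43.

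Cebpb, known for inducible and emergency myelopoiesis and for macrophage genes, varied the most of the measured family members. Its log2 values were 9.18, 8.41, 8.57 and 8.63 on the arrays of replicates 1 to 4. The array of replicate 1 stood 0.65 above the mean of the others, and the remaining arrays lay within 0.22 of each other. The mean was 8.70 ± 0.34 (SD, n = 4), 2.13 above the line, and the range 0.77, or 1.70-fold. Cebpd, an inducible member that responds to inflammatory cytokines, had log2 values of 7.89, 7.37, 7.35 and 7.53. Here too the array of replicate 1 was highest, by 0.47 over the mean of the others, and without it the range was 0.18. The mean of 7.53 ± 0.25 (SD, n = 4) was 0.96 above the line. On the array of replicate 2, Cebpd was 0.11 above the 99th percentile line and its lowest margin over an array's median was 0.032.

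The remaining members modulate the others. Cebpg, a short member without a classical activation domain that dimerizes with other C/EBP and ATF proteins, had log2 values of 9.12, 9.09, 8.92 and 8.89, with a mean of 9.003 ± 0.12 (SD, n = 4), 2.43 above the line. The arrays of replicates 1 and 2 were higher than those of replicates 3 and 4. Its range of 0.23 was the narrowest of the 6. Ddit3, which encodes the stress-induced dimerization partner CHOP, had log2 values of 8.24, 8.27, 8.46 and 8.08, with a mean of 8.26 ± 0.16 (SD, n = 4), 1.69 above the line. It was highest on the array of replicate 3 and lowest on that of replicate 4. Cebpz, named for CCAAT binding but no leucine zipper protein, was left without a value.

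The promoters of Cebpa and Ddit3, whose patterns over the arrays were the closest of any pair in the family, and of Cebpb, the most variable member, are shown for comparison. Each is the 250 bases before the transcription start from RefSeq (GRCm38.p6), read 5′ to 3′ on the gene's own strand, which is the plus strand in each case. Capitals mark matches, on either strand, to 6 motifs that are spelled out beside the matches after the sequences. Of the 7 listed genes, 4 matched the promoter table, the other being Cebpg; Cebpd, Cebpe and Cebpz were not matched. The motifs were chosen with the sequences in view, and a match is a description, not a site.
Cebpa, chr7:35119043-35119292: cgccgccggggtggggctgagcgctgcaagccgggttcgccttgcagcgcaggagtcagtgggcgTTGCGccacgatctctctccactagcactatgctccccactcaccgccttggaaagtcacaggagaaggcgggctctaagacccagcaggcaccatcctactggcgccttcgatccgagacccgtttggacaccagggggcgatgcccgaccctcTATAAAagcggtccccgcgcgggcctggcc
Ddit3, chr10:127290543-127290792: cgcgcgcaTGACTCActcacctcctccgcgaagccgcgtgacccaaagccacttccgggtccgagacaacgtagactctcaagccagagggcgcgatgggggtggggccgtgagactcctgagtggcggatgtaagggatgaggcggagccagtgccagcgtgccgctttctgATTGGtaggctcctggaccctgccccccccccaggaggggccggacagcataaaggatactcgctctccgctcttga
Cebpb, chr2:167688665-167688914: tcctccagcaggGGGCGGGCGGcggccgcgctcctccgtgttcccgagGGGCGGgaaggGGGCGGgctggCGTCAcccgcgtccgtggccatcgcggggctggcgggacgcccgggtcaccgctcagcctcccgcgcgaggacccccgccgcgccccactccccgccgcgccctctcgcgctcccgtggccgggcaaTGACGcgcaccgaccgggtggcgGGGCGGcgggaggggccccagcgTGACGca

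The Cebpa window held TTGCG at 185 to 181 bases before the start and TATAAA at 30 to 25. The former is a C/EBP core and the latter a TATA box. Over all 32851 promoter windows of the same length, 14.5% held the C/EBP core on either strand and 12.4% the TATA box. The Ddit3 window held the AP-1 site TGACTCA at 242 to 236 bases before the start (4.46% of all windows) and CCAAT on the opposite strand at 77 to 73 (33.8%). Cebpb had the cAMP response element core TGACG at 53 to 49 and at 7 to 3 bases before the start and on the opposite strand at 180 to 176 (17.8% of all windows). It also held 5 copies of the GC box GGGCGG (32.7% of all windows), of which the first and the next overlap. Its GC content was 81.6% against a median of 52.4% over all windows, with 66.4% for Cebpa and 64.8% for Ddit3. Cebpa and Ddit3 had none of the searched motifs in common in these windows. Cebpg, which lies on chromosome 7 like Cebpa, has its window on the minus strand at chr7:35056567-35056816, with CCAAT on the opposite strand at 89 to 85 and at 28 to 24 bases before the start and a GC content of 70.8%.

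Across arrays the family was not uniformly variable. The median SD of the 6 genes was 0.18 on the log2 scale against 0.13 over the 20869 probe sets above the line. A range of at least 0.5 was counted as wide, and 2 of the 6 genes had one, Cebpb and Cebpd, against 18.6% of all probe sets above the line. Just inside the limit lay Cebpd at 0.54 and just outside it Cebpe at 0.43. With quantile normalization the range of Cebpd was 0.49 and the count 1. Without replicate 1, where Cebpb and Cebpd were highest, no family gene had a wide range. Leaving out an array can only narrow or keep a range, and the 18.6% holds for all 4 arrays. The SD of Cebpb lay at percentile 93.8 of all probe sets above the line, that of Cebpd at 85.6, that of Cebpe at 75.7, that of Ddit3 at 63.3, that of Cebpa at 61.6 and that of Cebpg at 42.9. No test was made between arrays, since each holds 1 replicate of the same group.

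**Figure D2:**
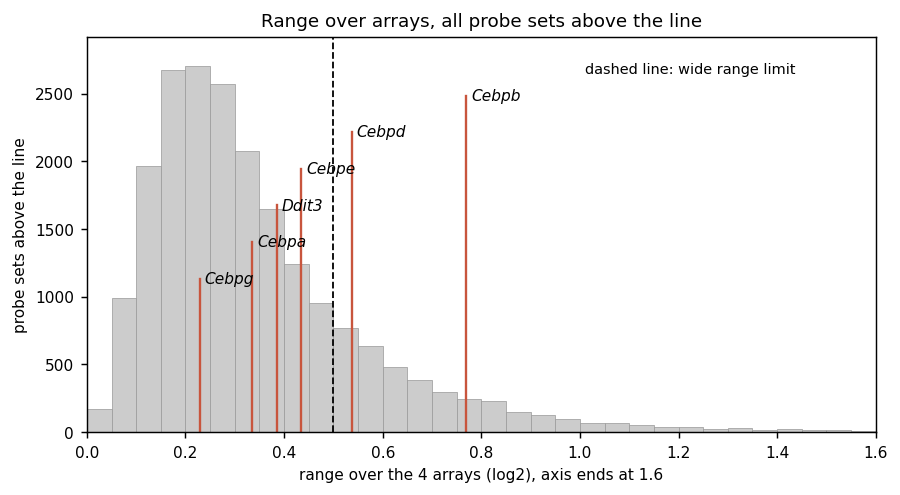
Range of log2 values over the 4 arrays (horizontal axis, shown to 1.6) for the 20869 probe sets above the background line, as numbers of probe sets per bin (vertical axis). Red lines mark the 6 C/EBP family genes at heights chosen for legibility, and Cebpd at 0.54 and Cebpb at 0.77 lie beyond the dashed limit for a wide range.

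On the array of replicate 1 the members differed in sign. There Cebpb (0.65) and Cebpd (0.47) were above the mean of the other arrays, Cebpe was below it (-0.37), and Cebpa (0.12), Cebpg (0.15) and Ddit3 (-0.03) lay closer to it. In all, 4 of the 6 genes were higher there, against 53.5% of all probe sets above the line. The same signs were found for these genes with quantile normalization, median centring and cyclic loess, with shifts of Cebpb of 0.61 to 0.62 and of Cebpe of -0.40. On the array of replicate 4 all 6 genes were lower than the mean of the others, against 53.0% of all probe sets above the line, but the shifts of Cebpd and Cebpe were -0.01, and with each of these 3 scalings the count was 4. The shift there was -0.30 for Cebpa, -0.25 for Ddit3 and -0.15 for Cebpg.

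Lists for other cell types also differed on the arrays of replicates 1 and 4. On that of replicate 1, where Cebpb and Cebpd were high, 12 of 12 early B-cell genes were higher, against 53.5% of all probe sets above the line, with a median shift of 0.80 and a mean log2 value of 10.90 against 9.81 to 10.36 on the other arrays. There 7 of 7 erythroid markers were lower, against 46.5% of all probe sets above the line, with a median shift of -1.31 and a mean log2 value of 8.64 against 9.99 to 10.19. Monocyte and macrophage markers were higher there in 6 of 8 cases, not far from that 53.5%, with a median shift of 0.15. Their mean log2 value was 10.39 on that array and 10.11 to 10.41 on the others. On the array of replicate 4, 11 of 12 early B-cell genes were lower, against 53.0% of all probe sets above the line, with a median shift of -0.60. There 7 of 7 erythroid markers were higher, against 9800 of the 20869 probe sets above the line, with a median shift of 0.32. Monocyte and macrophage markers were lower in 5 of 8 cases, not far from that 53.0%, with a median shift of -0.06. Late granule genes were higher there in 8 of 12 cases, against those 9800 of 20869, with a median shift of 0.31. Mast cell, basophil and eosinophil markers above the line were lower in 5 of 6 cases, against that 53.0%, with a median shift of -0.25. None of these lists had a marker at 0, since log2 intensities have no true zero, and their part in the C/EBP values was not tested.

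**Figure D3:**
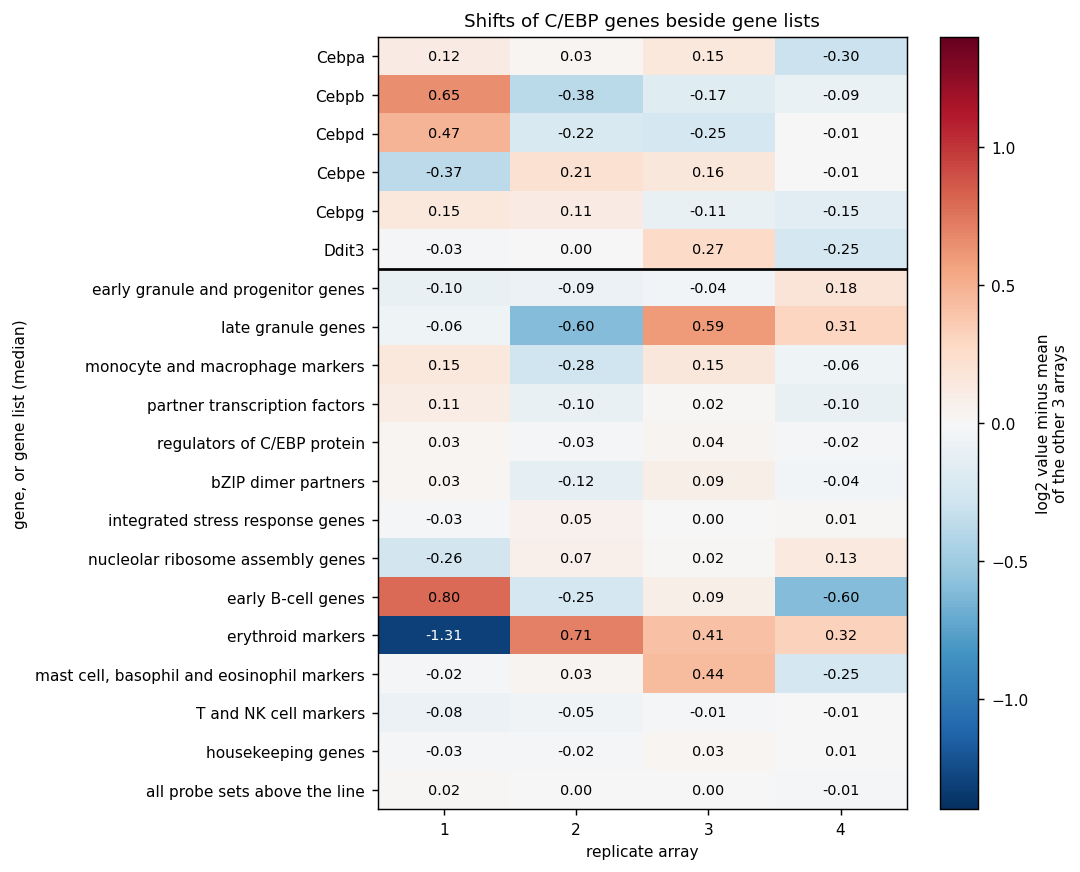
Log2 value on 1 array minus the mean of the other 3 arrays (colour and printed number) for the 6 C/EBP family genes (above the black line) and as medians over the genes above background of 13 gene lists and over all probe sets above the line (below it), for the arrays of replicates 1 to 4 (columns). Cebpb reads 0.65 and the erythroid markers -1.31 on the array of replicate 1, while the housekeeping genes stay between -0.03 and 0.03.

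Likeness of pattern was measured as the root mean square difference between values centred on their own mean over the 4 arrays, in log2 units, as a description. Of 15 pairs of family genes the closest were Cebpa and Ddit3 at 0.073, followed by Cebpb and Cebpd at 0.10. The most distant pairs were Cebpb and Cebpe at 0.46 and Cebpd and Cebpe at 0.38. Cebpa and Cebpg stood at 0.12. With 4 arrays such closeness is common. Of 13743 other single-symbol probe sets above the line, 12.3% lay within 0.1 of Cebpa and 27.3% within 0.1 of Cebpg, and Ddit3 took place 569 among the probe sets nearest to Cebpa. Cebpb had the least company, with 52 probe sets (0.378%) within 0.1, and Cebpd took place 52 among its neighbours. Cebpd itself had 283 within 0.1, Cebpe 875 and Ddit3 1127.

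The genes most like Cebpb were Gdpd3 (0.037), Zfp382 (0.052), Hoxa6 (0.053), Sesn3 (0.053) and Lat (0.055). Gdpd3 had log2 values of 7.67, 6.82, 6.96 and 7.06, high on the array of replicate 1 alone. Those most like Cebpd were Prkch (0.017), 6720489N17Rik (0.020), Atp7a (0.025), Arhgef10l (0.026) and Apba1 (0.027). Prkch, a protein kinase C gene, had log2 values of 9.13, 8.64, 8.63 and 8.77.

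**Figure D4:**
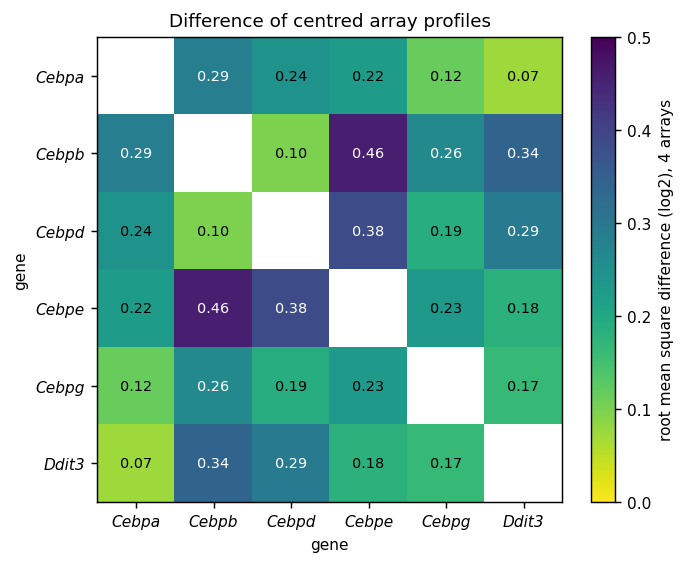
Root mean square difference over 4 arrays (log2, colour and printed number) between the centred profiles of each pair of C/EBP family genes (both axes). Cebpa and Ddit3 (0.07) and Cebpb and Cebpd (0.10) are the closest pairs, and Cebpb and Cebpe (0.46) the most distant.

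The genes that C/EBP factors are known to drive were set beside them. Of the early granule and progenitor genes 10 of 10 were above the line, against 60.0% of all probe sets. A wide range was found in 2 of the 10, near the 18.6% of all probe sets above the line. Mpo, which encodes the peroxidase of primary granules, had log2 values of 13.62, 13.85, 13.96 and 13.84, and Elane, neutrophil elastase, 13.49, 13.66, 13.65 and 13.91. Mpo was lowest on the array of replicate 1, as was Cebpe. In centred pattern Mpo lay at 0.078 from Cebpe, the closest of the 10 genes, the rest of which lay at 0.15 to 0.30. Such closeness was not particular to this list. Noc4l, a nucleolar complex gene, lay at 0.071 from Cebpe, and 6.37% of other single-symbol probe sets above the line lay within 0.1. The median SD of this list was 0.14, close to the 0.13 of all probe sets above the line.

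Late granule genes had a wide range in 10 of 12 cases, against 18.6% of all probe sets above the line, and a median SD of 0.42. Ltf, the lactoferrin gene of secondary granules, had log2 values of 10.73, 9.50, 10.94 and 10.75, and Camp, a cathelicidin, 10.11, 9.40, 10.58 and 9.95. The array of replicate 2 was low for 11 of 12 genes of the list, against 50.7% of all probe sets above the line, with a median shift of -0.60. On that array Cebpe, which is known to drive these genes, was at its highest (0.21 above the mean of the others) and Cebpa near its mean (0.03). All 12 of 12 were higher on that of replicate 3, against 50.0% of all probe sets above the line, with a median shift of 0.59. There Cebpe lay 0.16 and Cebpa 0.15 above the mean of the other arrays. Ltf lay at 0.66 from Cebpe in centred pattern, the farthest of the 12. For monocyte and macrophage markers, 8 of 8 lay below the mean of the other arrays on replicate 2, against that 50.7%. Their median shift was -0.28, and Cebpb was lowest on the same array (-0.38). F13a1, a coagulation factor subunit of monocytes, had log2 values of 12.94, 12.47, 12.68 and 12.63. Of the 8 markers, 2 (F13a1 and Mpeg1, the second named after its values were seen) had the same highest and lowest array as Cebpb and 6 did not. Among the latter, Itgam, an integrin of myeloid cells, had 10.56, 10.28, 10.67 and 10.67, Ccr2, a chemokine receptor of monocytes, 11.50, 11.12, 11.66 and 11.76, and Cd14, a co-receptor for lipopolysaccharide, 7.24, 7.07, 6.95 and 7.10.

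Transcription factors that act with C/EBP proteins were above the line in 10 of 10 cases, against 60.0% of all probe sets. A wide range was found in 1 of them, against 18.6% of all probe sets above the line. Spi1, which encodes the myeloid and B-lineage factor PU.1, had log2 values of 12.10, 11.87, 12.04 and 12.07. Runx1, which acts upstream of Cebpa in haematopoiesis, had 11.08, 10.84, 10.78 and 10.79. Gfi1, a repressor needed for granulocytes, had 9.06, 9.10, 9.40 and 9.29 on the 4 arrays. Regulators of C/EBP protein were above the line in 6 of 6 cases, against that 60.0%. Trib1 and Trib2 encode pseudokinases that target C/EBPα for degradation through the ubiquitin ligase Cop1. Trib1 had log2 values of 7.61, 7.62, 7.68 and 7.61, a range of 0.074. Trib2 had 9.38, 9.06, 8.92 and 8.40, a range of 0.98 with the array of replicate 4 lowest.

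The bZIP dimer partners were above the line in 12 of 12 cases with a median SD of 0.13, and the integrated stress response genes in 20 of 20 with 0.12. Of all probe sets 60.0% were above the line, with a median SD of 0.13. Among the bZIP dimer partners, Hlf passed the stricter 99th percentile line on 2 arrays and Batf3 on 3, and the rest passed it on all 4. Atf4, the stress-response activator upstream of Ddit3 and a dimer partner of C/EBP proteins, had log2 values of 8.64, 8.70, 8.73 and 8.58. It was highest on the array of replicate 3 and lowest on that of replicate 4, as was Ddit3, but its range was only 0.15. In centred pattern Atf4 lay at 0.086 from Ddit3, the closest of the 20 genes, the rest of which lay at 0.14 to 0.52. Among the bZIP dimer partners Fos lay closer to Ddit3, at 0.082. Within 0.1 of Ddit3 lay 8.2% of other single-symbol probe sets above the line. Atf3 had 8.10, 7.86, 8.22 and 8.08, and Trib3, a target of CHOP, 7.22, 7.46, 7.34 and 7.39. Asns, the asparagine synthetase that ATF4 induces, was the widest of this list at 1.22, with 10.68 on the array of replicate 1 and 11.68 to 11.90 on the others. On that array the shift of Ddit3 was -0.03 and that of Asns -1.14.

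Cebpz could not be followed by a probe set, and other genes of nucleolar ribosome assembly, the process it is known for, were described in its place. Of 9 nucleolar ribosome assembly genes with a probe set, 9 were above the line, against 60.0% of all probe sets. On replicate 1, 9 of 9 lay lower than the mean of the other arrays, against 46.5% of all probe sets above the line, with a median shift of -0.26. Noc3l and Noc4l, nucleolar complex genes, had log2 values of 9.25 and 9.26 there against 9.40 to 9.49 and 9.50 to 9.69 on the other arrays. Over all 13 lists, 126 of 129 entries with a probe set were above the line, against that 60.0%.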

How the data were processed

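RNA of B220+cKit+ pro-B cells from 4 wild type C57BL/6 samples was read on Mouse Gene 1.0 ST arrays from Affymetrix. The authors deposited RMA values, background-corrected and normalized, in log2 units for each probe set. The methods name a filter on low-expression probe sets without its threshold, and do not say which arrays were normalized together. The table was used whole, 34760 probe sets, without further normalization. Precision is limited by the number of arrays.

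Gene names came from the platform annotation. Of 21640 with 1 symbol, 21553 matched the RefSeq gene table by gene identifier, including all 6 family genes. Those with several symbols (1321) or none listed (11799) were not named, and no level was compared between probe sets. A gene with several probe sets was given by that with the highest mean. The line was set separately on each array, at the 95th percentile of the 1246 silent probe sets, and 45 of these passed on all arrays. The limma fit used the log2 value minus the line, with an intercept only, one-sided, adjusted by Benjamini-Hochberg over all probe sets. A shift is the value on an array less the average over the remaining arrays. All samples form 1 group, so no groups were compared. Members, lists and tests were chosen with earlier results of these data known. Named genes were the family, the first 4 genes of each of 13 lists (138 entries, 129 with a probe set), list genes with a range of at least 1, and the 5 probe sets closest to each family gene with a wide range. Outside this rule, Mpeg1, Fos, Hlf, Vpreb1, Cd8a and Il5ra were named after their values were seen. The line was also set at the 99th and 90th percentiles, without odorant receptors (211 probe sets left) and at the median of the array. Further alternatives were 3 of 4 arrays, the limma test, quantile normalization, median centring, cyclic loess, other range limits (0.3 and 1), the mean over probe sets and leaving out each replicate. The fit was tested on simulated data. The search for close profiles was tested with a near copy of each family gene's profile planted among the measured values. That shows only that a copy is found, not that closeness over 4 arrays has meaning. The fit ran in limma 3.58.1 under R 4.3.3, and the rest in Python 3.11.15 with pandas 2.3.3 and numpy 2.4.6.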

Additional observations from a re-analysis of the deposited data

Results flagged for a closer look

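No C/EBP family gene had 1 array far from the others by Dixon's ratio for 4 values. The nearest were Cebpb and Cebpa, both at 0.72. Of 81 genes named by the stated rule, 12 did, and no share over all probe sets was set beside this count. Chance alone gives about 1 in 20 for genes chosen without regard to their values, which is no measure for this count, since some of the 81 were named for a wide range or for likeness to Cebpb or Cebpd and the genes of a list vary together. Each value that stood apart is followed in brackets by the mean over the remaining arrays. On replicate 1, Hoxa6 at 7.82 (7.22) and Lat at 8.29 (7.63), which were named for their likeness to Cebpb, were higher. Alas2 at 6.96 (8.04), Slc4a1 at 8.52 (10.79), Hemgn at 7.89 (9.55) and Rhd at 8.41 (10.26), erythroid genes, were lower there. On the array of replicate 2, Ltf at 9.50 (10.81), Ngp at 12.38 (12.96) and Mcpt8 at 9.15 (9.30) were lower. On that of replicate 3, Trib1 at 7.68 (7.61) and Ppia at 13.31 (13.22) were higher, and on that of replicate 4 Prtn3 at 13.22 (13.03) was higher.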

How the results depend on the processing

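No paired analysis was possible because the series has a single group of samples here. All 6 measured C/EBP family genes were above the line under each of the 14 alternatives tried. Several of these could not lower the count: leaving out a replicate, 3 of 4 arrays and the 90th percentile line. The mean over probe sets could not either, with 1 probe set per gene, nor median centring, which moves values and line together. The count of genes with a wide range, 2 as reported, was 5 with a limit of 0.3 and 0 with a limit of 1. A lower limit can only raise or keep this count, and a higher one can only lower or keep it. The share of 18.6% of all probe sets above the line holds for the limit of 0.5 alone. The count was 1 with quantile normalization, and 0 to 2 when each replicate was left out, with 0 without replicate 1. Leaving out an array cannot widen a range. With quantile normalization the range of Cebpd was 0.49, and without replicate 1 the ranges of Cebpb and Cebpd were 0.22 and 0.18. The cause was not tested. The mean margin of Cebpd over the line was 0.33 with the 99th percentile and 0.21 with the array median, against 0.96. The count of list entries above the line was 126 under each of the 3 scalings, and these moved array medians by at most 0.026. Signal over background limits the values of Cebpd, and 4 arrays of 1 group allow no comparison between conditions. The planned comparison of protein sequences was not run.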
